A study of Mus musculus with 6 samples.

Results

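Neuronal and choroid plexus microRNAs (miRNAs) were followed library by library in mouse liver. The set held 10 mature miRNAs of the 1546 listed, and its members were selected on their names and with their levels in these libraries already known: mmu-miR-9-5p, mmu-miR-9-3p, mmu-miR-124-3p, mmu-miR-218-5p, mmu-miR-1298-5p, mmu-miR-128-3p, mmu-miR-129-5p, mmu-miR-129-2-3p, mmu-miR-138-5p and mmu-miR-137-3p. Male C57BL/6 mice, aged 8 weeks at the start, received a normal diet (NC) or a high-fat diet, a diet model of metabolic dysfunction-associated fatty liver disease (MAFLD), for 16 weeks, with 6 mice per diet. Small RNA was sequenced from whole liver tissue in 3 libraries per group, named NC1 to NC3 and MAFLD1 to MAFLD3 by their replicate numbers. All mice were of the same strain and sex, and no transgene or drug was named for either group. Which mice gave which libraries was not given in the sources used here, so the spread between libraries may be partly technical.

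An miRNA is cut from a hairpin transcript, and either arm of the hairpin (5p or 3p) can be loaded into an Argonaute protein, where bases 2 to 8, the seed, pair with target mRNAs. miR-9 and miR-124 are known from neural progenitors and neurons, where they take part in neurogenesis and in the repression of non-neuronal transcripts. miR-1298 lies in the serotonin receptor gene Htr2c, which is strongly expressed in the choroid plexus. Hepatocytes, which form most of the liver, are known instead for miR-122, miR-192 and miR-148a.

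Levels are given as CPM, the reads of a miRNA scaled so that all miRNAs of a library sum to 1000000. The libraries held 1336935 to 4685712 miRNA reads, so that 3 reads, the floor used here for detection, were worth 0.640 to 2.24 CPM. The hepatocyte miRNAs miR-122-5p, miR-122-3p, miR-192-5p, miR-194-5p and miR-148a-3p together made up 644087 to 816441 CPM in the 6 libraries, and miR-148a-3p alone took 46.8% to 71.4% of the reads. NC1 and NC2 were both above the other 4 libraries, NC3 included, in 9 of the 10 miRNAs, against 6.99% of all tested, a count that the choice of members fixed and that includes members separated by no more than counting error. This split does not follow the diets. All counting intervals given are 95% intervals and cover counting error only, not the variation between mice.

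The mature sequences, from RefSeq with the GRCm38.p6 build, show which molecules were counted and how far apart they are. The seed, bases 2 to 8, is in capitals, and 9 of the 10, all but miR-124-3p, had an entry.
miR-9-5p: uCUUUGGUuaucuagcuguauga
miR-9-3p: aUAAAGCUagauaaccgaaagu
miR-218-5p: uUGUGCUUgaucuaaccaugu
miR-1298-5p: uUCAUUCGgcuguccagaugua
miR-128-3p: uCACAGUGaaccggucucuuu
miR-129-5p: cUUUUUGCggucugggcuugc
miR-129-2-3p: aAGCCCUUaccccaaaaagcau
miR-138-5p: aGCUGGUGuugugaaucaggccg
miR-137-3p: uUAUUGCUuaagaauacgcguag

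The 9 sequences were 21 to 23 bases long and carried 9 different seeds, so no pair of them forms a seed family. None came closer than 4 edits (substitutions, insertions or deletions) to any other listed miRNA with a sequence. That closest case was miR-9-5p against miR-9b-5p, which was at 0 in 5 libraries and at 1.50 CPM in NC3. No distance is given here between miR-129-2-3p and miR-129-1-3p, its counterpart from the other miR-129 hairpin. The seed of miR-218-5p was shared with miR-7002-3p, which had 0.213 CPM in MAFLD2 and 0 in the other 5 libraries.

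The seed of miR-128-3p reappears moved by 1 base in the abundant miR-27 pair, whose sequences are shown for that comparison.
miR-27a-3p: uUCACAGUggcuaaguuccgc
miR-27b-3p: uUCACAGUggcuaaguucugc
miR-27a-3p stood at 321 to 694 CPM and miR-27b-3p at 2680 to 7451 CPM. Both differ from miR-128-3p along the rest of the molecule.

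The 9 miRNAs with an entry come from 13 hairpin genes on 11 chromosomes, since several hairpins give the same mature sequence. Coordinates are of the GRCm38 build and hosts of the GENCODE annotation. miR-9-5p and miR-9-3p are each encoded by 3 hairpins, Mir9-1 (chr3:88215598-88215686, in an intron of the long non-coding RNA Gm3764), Mir9-2 (chr13:83738814-83738885, overlapping an exon of the non-coding C130071C03Rik) and Mir9-3 (chr7:79505264-79505353, in an intron of Mir9-3hg). Mir1298 is a single hairpin in an intron of Htr2c (chrX:147064905-147065002). The hairpins of miR-218 lie in introns of Slit2 (chr5:48223942-48224051) and Slit3 (chr11:35616816-35616925), which encode axon guidance ligands. Those of miR-128 lie in introns of R3hdm1 (chr1:128202361-128202430) and Arpp21 (chr9:112118636-112118711, minus strand).

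Mir129-1 overlaps an exon of the non-coding Gm3294 (chr6:29022619-29022691) and Mir129-2 lies in an intron of Mir670hg (chr2:94241364-94241453, minus strand). Mir138-1 (chr9:122682876-122682974) overlaps an exon of Gm47135 and Mir138-2 (chr8:94324311-94324381) one of C78859. Mir137 overlaps an exon of Gm26871 (chr3:118433857-118433929). Because 5p reads of miR-9, miR-129 and miR-138, and those of miR-128-3p and miR-218-5p, can come from any of their hairpins, these levels cannot be assigned to a single locus.

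The summed level of the 10 miRNAs was 604 CPM in NC1 and 1065 CPM in NC2. It was 95.7 CPM in NC3, 70.2 CPM in MAFLD1, 73.0 CPM in MAFLD2 and 121 CPM in MAFLD3. NC3 thus lay inside the range of the MAFLD libraries, while NC1 and NC2 lay above all 4 of the others. All 10 were above the 3-read floor in NC1 and in NC2, and 5 of 10 were above it in each of the other 4 libraries. In NC3 and in MAFLD1, 5 of 10 were at 0 reads, against 1 in MAFLD2, the most deeply sequenced library, and 2 in MAFLD3.

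**Figure D1:**
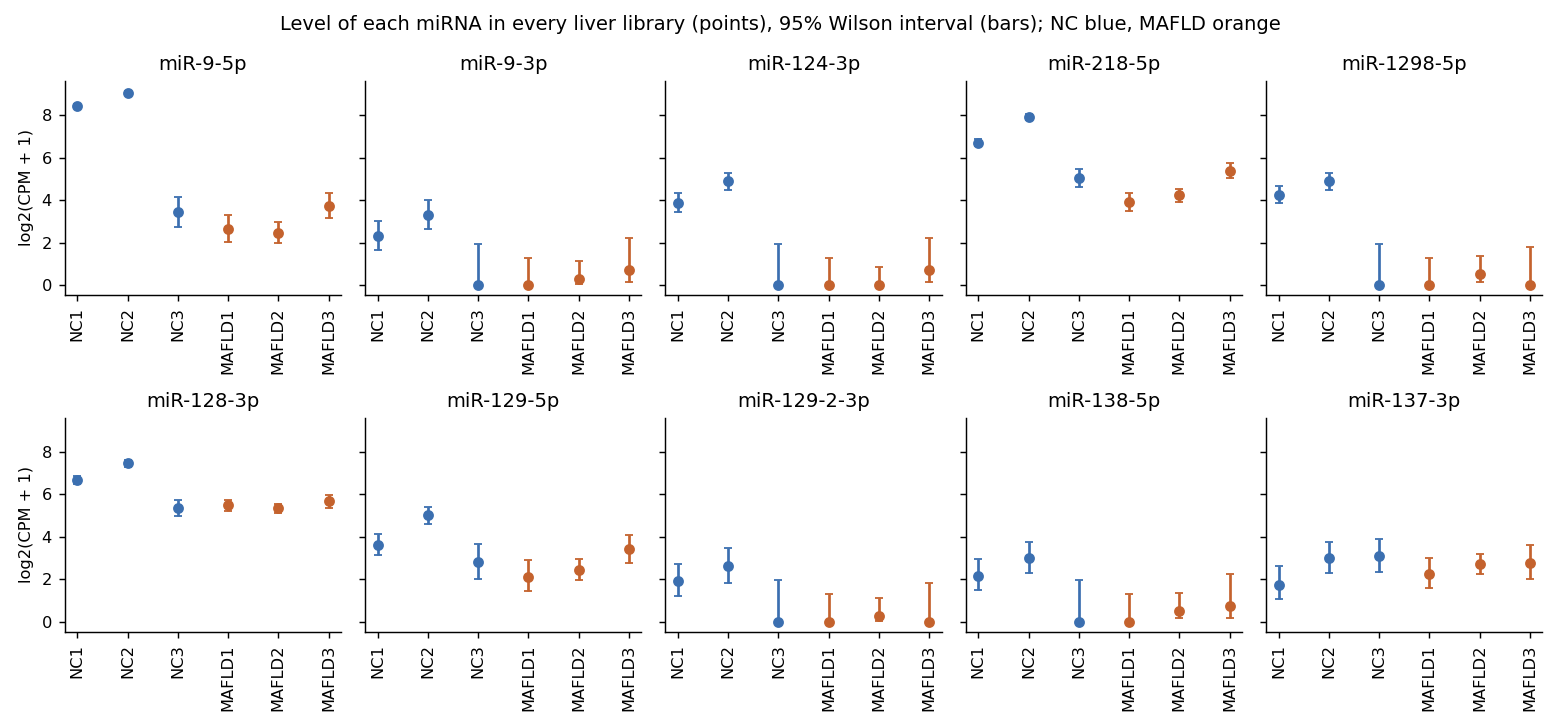
Level of each of the 10 miRNAs in every library as log2(CPM + 1), with NC libraries in blue, MAFLD libraries in orange and bars for the 95% Wilson interval of the read count. In 9 of the 10 panels NC1 and NC2 sit above the other 4 points and NC3 sits among the MAFLD points, and miR-137-3p is the exception.

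miR-9-5p, a regulator of neural progenitors, reached the highest level of the set. It stood at 344 CPM (877 reads) in NC1 and 530 CPM (832 reads) in NC2, against 9.72 CPM in NC3, 5.25 CPM in MAFLD1, 4.48 CPM in MAFLD2 and 12.4 CPM in MAFLD3. Counted by rank among the 1546 listed miRNAs, it was 45 in NC1 and 37 in NC2, and between 238 and 275 in the other 4 libraries. NC1, the lower of the pair, exceeded MAFLD3, the highest of the other 4, 27.8-fold (exact counting interval 17.7 to 46.4). The group means were 295 ± 264 CPM (SD, n = 3) for NC and 7.37 ± 4.36 CPM (SD, n = 3) for MAFLD, so the NC standard deviation was nearly as large as the NC mean.

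miR-9-3p, the opposite arm of the same hairpins, stood at 3.92 CPM (10 reads) in NC1 and 8.92 CPM (14 reads) in NC2. It had no read in NC3 or MAFLD1 and 1 read each in MAFLD2 and MAFLD3. Both arms of miR-9 were therefore highest in the same pair of libraries. For miR-9-3p the interval of NC1 over MAFLD3, 0.856 to 261, included 1, so NC1 was not separated from MAFLD3 beyond counting error. The 3p arm made up 1.13% of miR-9 reads in NC1 (Wilson interval 0.614 to 2.06%) and 1.65% in NC2 (0.988 to 2.76%), and these intervals overlap. In the other libraries miR-9 totalled 13 to 22 reads over both arms, too few for the 3p share to be compared.

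miR-124-3p, a neuron-enriched miRNA that represses non-neuronal transcripts, stood at 13.7 CPM (35 reads) in NC1 and 28.7 CPM (45 reads) in NC2. It was at 0 in NC3, MAFLD1 and MAFLD2 and had 1 read, 0.652 CPM, in MAFLD3. A single read is under the floor, so miR-124-3p was detectable in NC1 and NC2 only, at these depths. miR-9-5p had 25.1 times the reads of miR-124-3p in NC1 and 18.5 times in NC2. Such ratios between different miRNAs also depend on how well each sequence is ligated to the adapters.

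miR-1298-5p, from the Htr2c intron, followed miR-124-3p closely. It stood at 18.0 CPM (46 reads) in NC1 and 28.7 CPM (45 reads) in NC2, with 2 reads (0.427 CPM) in MAFLD2 and 0 in NC3, MAFLD1 and MAFLD3. NC1 exceeded MAFLD2 42.3-fold, with a wide interval of 11.1 to 359 that reflects those 2 reads.

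miR-218-5p, which is known from motor neurons and shares its transcripts with the Slit ligands, was above the floor in every library. It stood at 103 CPM in NC1, 242 CPM in NC2, 32.2 CPM in NC3, 13.9 CPM in MAFLD1, 17.7 CPM in MAFLD2 and 41.1 CPM in MAFLD3. The gap between NC1 and MAFLD3 was 2.51-fold (1.90 to 3.36), far smaller than that of miR-9-5p. Its group means were 126 ± 107 CPM for NC and 24.2 ± 14.7 CPM for MAFLD (SD, n = 3 each).

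miR-128-3p, which acts on neuronal excitability, had a steady level outside NC1 and NC2. It stood at 101 CPM in NC1 and 176 CPM in NC2, then at 40.4 CPM in NC3, 43.9 CPM in MAFLD1, 39.5 CPM in MAFLD2 and 50.2 CPM in MAFLD3. The 4 lower libraries spanned only 39.5 to 50.2 CPM, and NC1 exceeded the highest of them 2.02-fold (1.56 to 2.64).

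miR-129-5p, which is known from the control of neuronal ion channels and synaptic scaling, stood at 11.4 CPM in NC1 and 31.2 CPM in NC2. In the other libraries it was 5.98 CPM in NC3, 3.38 CPM in MAFLD1, 4.48 CPM in MAFLD2 and 9.77 CPM in MAFLD3. NC1 was ahead of MAFLD3 by 1.16-fold, with an interval of 0.604 to 2.34, so those libraries were not separated beyond counting error.

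miR-129-2-3p can come from the Mir129-2 hairpin alone. It had 7 reads in NC1 and 8 in NC2, 1 in MAFLD2 and 0 in NC3, MAFLD1 and MAFLD3. Its counterpart from the other hairpin, miR-129-1-3p, had 0 reads in NC1, 3 in NC2, 1 in NC3, 3 in MAFLD1, 7 in MAFLD2 and 1 in MAFLD3. The Mir129-2 product thus made up 100% of the miR-129 3p reads in NC1 (Wilson interval 64.6 to 100%) and 72.7% in NC2 (43.4 to 90.3%), against 12.5% in MAFLD2 (2.24 to 47.1%). The intervals of NC1 and MAFLD2 did not overlap, and those of NC2 and MAFLD2 did. These shares rest on 7 to 11 reads a library. How far the sequences of the 3p products differ was not measured here, so the shares also depend on each read being assigned to the right product.

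miR-138-5p, which is known from dendritic spines, stood at 3.53 CPM (9 reads) in NC1 and 7.01 CPM (11 reads) in NC2. It had 2 reads in MAFLD2, 1 in MAFLD3 and 0 in NC3 and MAFLD1. The interval of NC1 over MAFLD3, 0.751 to 237, included 1, as did that of miR-9-3p, 0.856 to 261, so for these sparse members the separation of NC1 from every other library was not larger than counting error.

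miR-137-3p, a regulator of neuronal maturation, did not share the pattern. It stood at 2.35 CPM in NC1, 7.01 CPM in NC2, 7.48 CPM in NC3, 3.75 CPM in MAFLD1, 5.55 CPM in MAFLD2 and 5.86 CPM in MAFLD3. NC1 was the lowest of all 6 libraries and NC3 the highest. The group means, 5.61 ± 2.83 CPM for NC and 5.06 ± 1.14 CPM for MAFLD (SD, n = 3 each), differed by less than the spread between libraries.

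Because NC1 and NC2 were high and the other libraries were low by very different folds, the make-up of the summed level differed between libraries. miR-9-5p made up 56.9% of it in NC1 and 49.8% in NC2, but 10.2% in NC3, 7.49% in MAFLD1, 6.14% in MAFLD2 and 10.2% in MAFLD3. miR-128-3p made up 16.8% in NC1 and 16.5% in NC2, against 42.2% in NC3 and 41.4 to 62.6% in the MAFLD libraries. miR-218-5p kept second place in all 6 libraries, with 17.1 to 33.9% of the sum. In NC1 and NC2 the order ran miR-9-5p, miR-218-5p, miR-128-3p, and in the other 4 it was headed by miR-128-3p and then miR-218-5p.

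**Figure D2:**
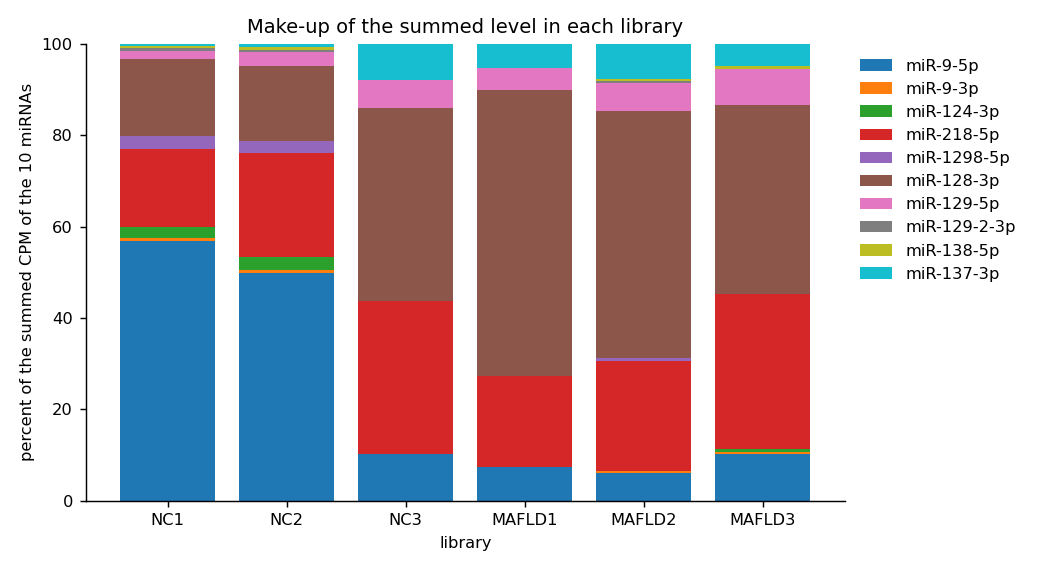
Percent of the summed CPM of the 10 miRNAs (vertical axis) that each contributed in every library (horizontal axis). miR-9-5p fills 56.9% and 49.8% of the bars of NC1 and NC2, and miR-128-3p is the largest block, 41.4 to 62.6%, in the other 4 libraries.

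In NC1 and NC2, all 10 miRNAs were at a higher CPM in NC2 than in NC1. The excess ran from 1.54-fold for miR-9-5p (exact counting interval 1.40 to 1.70) to 2.98-fold for miR-137-3p (1.01 to 9.81). For 7 of the 10 the interval excluded 1, and for miR-9-3p, miR-129-2-3p and miR-138-5p it included 1. miR-218-5p, at 2.35-fold (2.00 to 2.76), had an excess whose interval did not overlap that of miR-9-5p, so these abundant members did not scale by a common factor between the libraries. Of all 501 miRNAs tested, 62.9% were also higher in NC2, by a median of 0.23 on the log2(CPM + 1) scale.

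**Figure D3:**
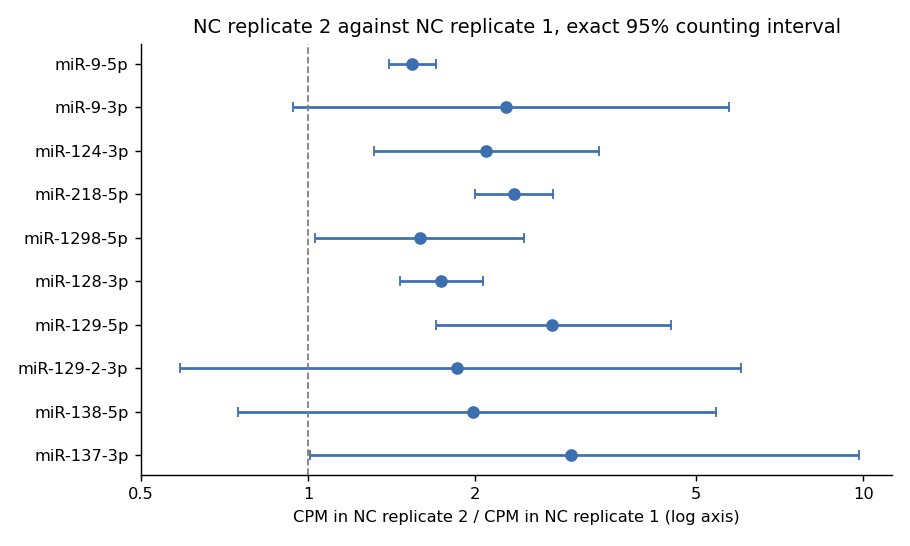
Ratio of the CPM in NC replicate 2 to that in NC replicate 1 for each miRNA, on a log axis, with exact 95% counting intervals as bars and a dashed line at 1. All 10 points lie right of the line, between 1.54 and 2.98, and 3 bars cross it.

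Read as a comparison of diets, these libraries gave a lower mean in MAFLD than in NC for all 10 miRNAs. The members were chosen with these values known, so the differences are a description and carry no test. On the log2(CPM + 1) scale, which understates changes of scarce miRNAs, the difference of MAFLD from NC was -4.02 (SE 1.02) for miR-9-5p, -2.88 (SE 0.96) for miR-1298-5p, -2.68 (SE 0.94) for miR-124-3p and -2.05 (SE 0.63) for miR-218-5p. The other 6 ran from -1.54 (SE 0.76) for miR-9-3p to -0.031 (SE 0.55) for miR-137-3p. The median over the 10 was -1.47, against 0.43 over all 501 tested, of which 144 had a negative difference. Scaling moved the median of all tested, to 0.04 with median-ratio factors, and the members' median minus that of all tested was -1.90 with CPM and -1.79 with those factors. With CPM computed without miR-148a-3p, which took more of the reads in NC1 and NC2, the members' median was -2.24, that of all tested 0.16 and the difference between them -2.40.

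Without NC1 and NC2, chosen for omission after their levels were seen, the median of the members was 0.11 and that of all tested -0.02, from NC3 alone against the 3 MAFLD libraries, where the lone library is assumed to vary like the others. miR-9-5p then differed by -0.48, and the negative difference of the set was gone. With either of NC1 and NC2 left out alone the median was -1.28 or -0.84. No member had all 3 NC libraries above all 3 MAFLD libraries, a pattern that 4.19% of the 501 tested miRNAs showed. NC1 and NC2 both above the other 4 libraries was found in 9 of the 10 members, as given above, and nothing is read from it. In bulk tissue, fewer cells of a type and less RNA per cell cannot be told apart.

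For the whole table, limma called 0.200% of the 501 miRNAs at an adjusted p under 0.05 (Benjamini-Hochberg), 1 miRNA that was no member, and edgeR on the recovered reads likewise 0.200%. Without NC3 the limma count was 114 of 501, of which 19 were lower in MAFLD. DESeq2 called 4.19% as lower in MAFLD, with miR-9-5p, miR-218-5p and miR-128-3p among them. At an unadjusted p under 0.05, limma gave 4.59% lower in MAFLD, with 4 members, and edgeR 9.98%, with 9 members. Since the rule drew on this same contrast, nothing is read from the members' counts. All 10 passed the filter of a mean of 1 CPM, but only 5 would have passed it on the 4 libraries without NC1 and NC2, so the filter kept several members through the libraries where they were high.

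Among themselves, the 10 miRNAs were compared by the root mean square difference of their profiles, each profile being log2(CPM + 1) over the 6 libraries minus its own mean. All points share the same 6 libraries and totals, so these figures describe and do not test likeness. miR-9-3p and miR-138-5p were most alike, with a difference of 0.16, followed by miR-129-2-3p and miR-138-5p at 0.25. Both are pairs of scarce miRNAs with few reads outside NC1 and NC2. miR-124-3p and miR-1298-5p, of the neuron and of the Htr2c intron, differed by 0.39. miR-9-5p, with its wider swing, was nearest to miR-124-3p at 0.76 and to miR-1298-5p at 0.82, both nearer than its own opposite arm at 1.52. The log2(CPM + 1) scale narrows the swing of scarce miRNAs such as miR-9-3p, so this order also depends on abundance.

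miR-218-5p was nearest to miR-9-3p at 0.41, and miR-128-3p was near to miR-129-2-3p at 0.33 and miR-129-5p at 0.38. miR-137-3p had no near profile in the set, with differences from 0.96 to miR-128-3p up to 2.86 to miR-9-5p. Among the 9 tested miRNAs nearest to each member, 6 were members for miR-9-5p, miR-124-3p and miR-1298-5p, 0 for miR-137-3p and 3 to 5 for the rest. The members were 10 of the 501 tested and were chosen with these levels known, so nothing is read from these counts.

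**Figure D4:**
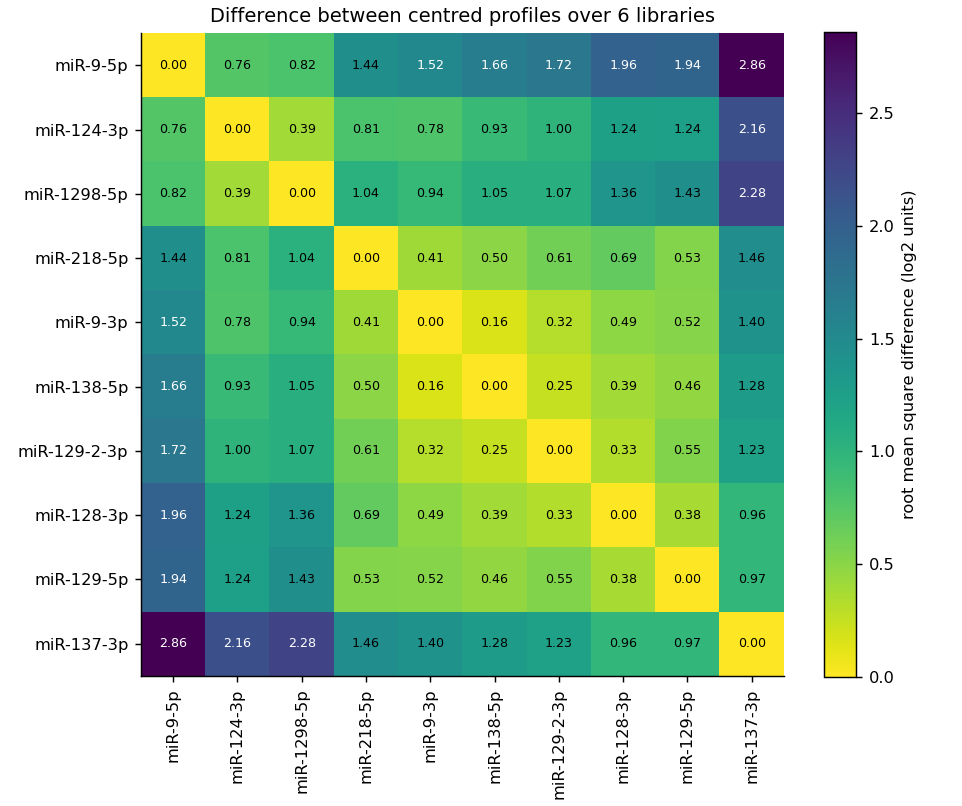
Root mean square difference, in log2 units, between the centred profiles of each pair of the 10 miRNAs over 6 libraries, where 0 means the same profile. miR-124-3p and miR-1298-5p (0.39) and the scarce miR-9-3p and miR-138-5p (0.16) are alike, and miR-137-3p lies at least 0.96 from each of the others and 2.86 from miR-9-5p.

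Outside the set, the nearest profile to each of miR-9-5p, miR-1298-5p and miR-218-5p was that of miR-219a-2-3p, at 1.27, 0.81 and 0.50. miR-219a-2-3p is known from oligodendrocytes, where miR-219 promotes differentiation. It stood at 14.1 CPM in NC1 and 15.3 CPM in NC2, and at 0.748 CPM in NC3, 0.750 CPM in MAFLD1, 0.427 CPM in MAFLD2 and 1.95 CPM in MAFLD3. NC1 exceeded MAFLD3 7.22-fold (2.28 to 36.7). Its difference of MAFLD from NC was -1.96 (SE 0.77), with a limma p of 0.0222 and an adjusted p of 0.212 over all 501, and DESeq2 called it lower in MAFLD. It was named for its likeness to members and passed the filter of a mean of 1 CPM only through NC1 and NC2. Nothing is therefore read from these tests.

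Next came miR-204-5p, known from the choroid plexus and the retinal pigment epithelium, and miR-127-3p, miR-382-5p, miR-370-3p and miR-329-5p, which belong to the imprinted clusters of chromosome 12. The sequences of miR-204-5p and miR-127-3p show that they share no seed with the set.
miR-204-5p: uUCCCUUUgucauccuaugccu
miR-127-3p: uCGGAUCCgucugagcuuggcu
miR-204-5p stood at 2.75 CPM in NC1 and 5.10 CPM in NC2, at 0 in NC3 and MAFLD1, at 0.213 CPM in MAFLD2 and at 0.652 CPM in MAFLD3. The root mean square difference of its profile was 0.53 from miR-218-5p and 1.19 from miR-1298-5p. miR-127-3p stood at 269 CPM in NC1, 445 CPM in NC2, 120 CPM in NC3, 82.9 CPM in MAFLD1, 41.4 CPM in MAFLD2 and 98.4 CPM in MAFLD3. Here NC3 lay above all MAFLD libraries, which among the members held for miR-137-3p alone. miR-382-5p and miR-370-3p did the same, at 2.24 CPM each in NC3 against at most 1.50 CPM in any MAFLD library. That level in NC3 is 3 reads, the floor, with a Wilson interval of 0.763 to 6.60 CPM, so this order rests on few reads. miR-329-5p, named for its difference of 0.52 from miR-218-5p, stood at 7.06 CPM in NC1 and 17.2 CPM in NC2, and NC3, at 2.99 CPM, lay inside the MAFLD range of 1.28 to 4.56 CPM. The median difference of the remaining tested miRNAs was 3.06 from miR-9-5p, 2.49 from miR-1298-5p and 1.73 from miR-218-5p.

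The imprinted miR-300-3p and miR-381-3p followed the diet labels more than the split of NC1 and NC2. miR-300-3p stood at 6.28, 17.2 and 11.2 CPM in NC1, NC2 and NC3 and at 3.38, 0.640 and 3.26 CPM in MAFLD1, MAFLD2 and MAFLD3. miR-381-3p stood at 89.0, 294 and 131 CPM in the NC libraries and at 30.8, 14.3 and 52.8 CPM in the MAFLD libraries. In both, NC3 lay between NC1 and NC2, and neither group overlapped the other. A chosen list of 8 miRNAs, not all of those clusters, had 7 tested, and miR-370-3p and miR-329-5p were not on it. All 7 had a negative difference (median -1.82), and limma called 0 of them at an adjusted p under 0.05. At an unadjusted p under 0.05 limma gave 6 as lower in MAFLD, against 4.59% of all tested. edgeR called 0, with 7 lower at an unadjusted p under 0.05, against 9.98% of all tested. DESeq2 called 7 as lower, against 4.19% of all tested. The list was chosen with earlier results known, so nothing is read from these counts.

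As a description of miRNAs of the same tissues, 3 further lists were read, of other brain miRNAs, of oligodendrocytes, and of the choroid plexus and Htr2c introns. These held 26 miRNAs, of which 24 were listed and 13 tested. limma called 0 of the 13 at an adjusted p under 0.05. At an unadjusted p under 0.05 it gave 1 as lower in MAFLD, miR-219a-2-3p, against 4.59% of all tested. edgeR called 0, with 6 lower in MAFLD at an unadjusted p under 0.05, against 9.98% of all tested. DESeq2 called 1 as lower, again miR-219a-2-3p, against 4.19% of all tested. Without NC3, limma called 2, miR-219a-2-3p and miR-204-5p, against 114 of all 501 tested. Both passed the filter of a mean of 1 CPM only through NC1 and NC2. The lists were also chosen with earlier results known, so nothing is read from the counts of these lists. The difference of MAFLD from NC was negative for 9 of the 13, with a median of -0.75 and a range of -1.96 to 1.02. NC1 and NC2 were both above the other 4 libraries for 6 of the 13, miR-7b-5p, miR-132-3p, miR-383-5p, miR-488-3p, miR-219a-2-3p and miR-204-5p, where the share over all tested was 6.99%. Several of these margins were small, such as 3.82 CPM (6 reads) in NC2 against 3.74 CPM (5 reads) in NC3 for miR-488-3p, 3.53 CPM in NC1 against 2.99 CPM in NC3 for miR-383-5p and 23.5 CPM in NC1 against 20.6 CPM in MAFLD1 for miR-132-3p. The brain-enriched miR-7b-5p stood at 30.6 CPM in NC1 and 49.1 CPM in NC2, against 10.2 to 23.6 CPM in the other 4.

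The summed oligodendrocyte list was 21.2 CPM in NC1 and 23.6 CPM in NC2 against 2.56 to 12.4 CPM elsewhere, and this split rested on miR-219a-2-3p. The other 3 of its miRNAs summed to 7.06 CPM in NC1 and 8.28 CPM in NC2, against 8.63 CPM in MAFLD1 and 10.4 CPM in MAFLD3. The choroid plexus and Htr2c list, miR-1298-5p not counted, summed to 2.75 CPM in NC1, 7.01 CPM in NC2 and at most 0.854 CPM in the other 4. Of the other Htr2c intron miRNAs that were listed, miR-1264-3p, miR-448-3p and miR-1912-3p had at most 0.637 CPM in any library, so miR-1298-5p was the only one of these above the floor. The other brain list summed to 102 CPM in NC1 and 141 CPM in NC2 against 61.0 to 91.2 CPM in the other 4, a smaller gap than that of the 10 miRNAs. Whether cells of another tissue contributed to these levels was not tested.

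**Figure D5:**
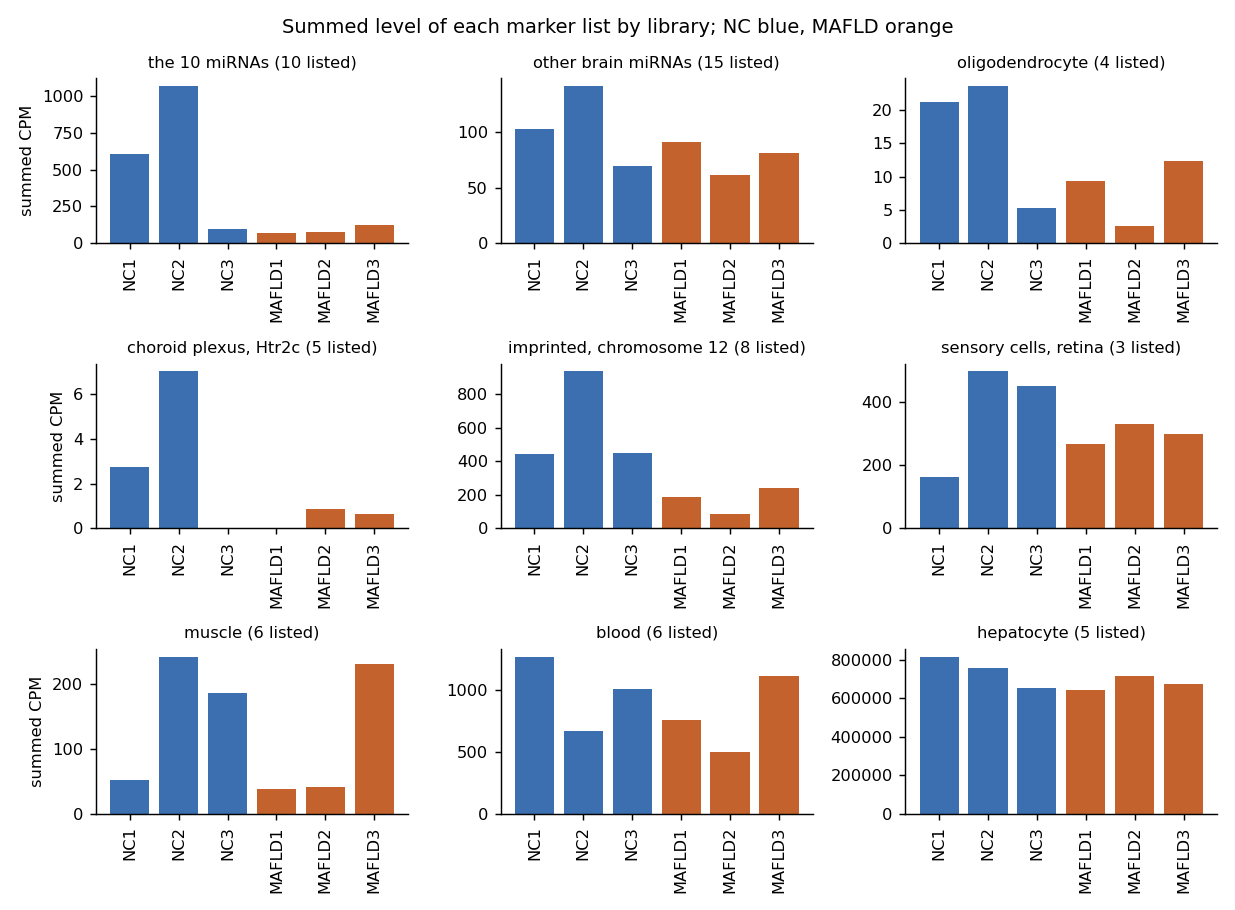
Summed CPM of each marker list in every library, with NC libraries in blue, MAFLD libraries in orange and a scale of its own in each panel that starts at 0. The 10 miRNAs (604 and 1065 CPM) and the oligodendrocyte list (21.2 and 23.6 CPM) are highest in NC1 and NC2, the latter through miR-219a-2-3p (14.1 and 15.3 CPM). The hepatocyte list is too, through miR-148a-3p (71.4% and 63.3% of the reads), whereas the muscle, blood and sensory lists are not.

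The hepatocyte list was also highest in NC1 and NC2, at 816441 and 757372 CPM against 644087 to 715313 CPM in the other 4. Its dominant member miR-148a-3p took 71.4% of the reads in NC1 and 63.3% in NC2, against 46.8 to 56.7% elsewhere. The members' median difference on a scale without it is given above. The excess rested on miR-148a-3p, as the other hepatocyte miRNAs were each at a lower CPM in NC1 and NC2 than in the other 4. CPM is a share, so a larger part taken by miR-148a-3p lowers the CPM of all other miRNAs. The levels of the other hepatocyte miRNAs without miR-148a-3p are not given here, so no fall of these miRNAs is read from their CPM. miR-122-5p stood at 42159 and 54430 CPM there against 55196 to 85150 CPM elsewhere. miR-194-5p stood at 2218 and 2519 CPM against 4345 to 7706 CPM. The summed muscle, blood, sensory and pancreas lists did not place NC1 and NC2 both above the other 4. Muscle miRNAs summed to 52.2 CPM in NC1, 242 CPM in NC2, 185 CPM in NC3, 37.5 CPM in MAFLD1, 41.6 CPM in MAFLD2 and 230 CPM in MAFLD3, so that NC1 was low and NC2 high. Blood cell miRNAs, miR-451a among them, summed to 501 to 1270 CPM, with NC1 highest and NC2 second lowest. The sensory and retinal miR-182-5p, miR-183-5p and miR-96-5p summed to 163 CPM in NC1, the lowest value, and 496 CPM in NC2, the highest. Pancreas miRNAs stayed at 1.57 to 9.77 CPM in total, with 1.57 CPM in NC1 and 4.46 CPM in NC2.

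The opposite arms of the other hairpins were nearly absent. By the rule used for naming, only miR-129-1-3p reached the floor of 3 reads in any library. The further 8 listed arms were looked at after their values were seen. miR-124-5p, the opposite arm of miR-124-3p, had 1 read in NC1 and 1 in NC2 and 0 elsewhere. miR-137-5p had 1 read, in NC2. The arms opposite miR-218-5p had 0 reads in NC1, NC2 and NC3, and 2, 1 and 2 in MAFLD1, MAFLD2 and MAFLD3. miR-138-2-3p had 2 reads in MAFLD3 and 0 elsewhere. miR-1298-3p had 2 reads in NC1 and 1 each in MAFLD2 and MAFLD3. The arms opposite miR-128-3p had 1 read each in NC1, NC2 and MAFLD1. Over all 6 libraries the opposite arms held 26 of 1802 miR-9 reads, 2 of 83 miR-124 reads, 5 of 874 miR-218 reads, 4 of 97 miR-1298 reads, 3 of 970 miR-128 reads, 2 of 25 miR-138 reads and 1 of 73 miR-137 reads. The major arm was thus the one listed among the 10 in each of these.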

How the data were processed

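Small RNA from mouse liver was sequenced in 3 NC and 3 MAFLD libraries. The deposited table holds CPM per mature miRNA, which the authors scaled to the miRNA reads of each library. The submitters' notes name FastQC, cutadapt, Bowtie and edgeR and the GRCm38 build, and their settings are not given in the sources used here. The labels' protocols also describe a human liver cell line, HepG2, but all 6 samples are labelled mouse liver. Of the values, 100% were whole multiples of 1 read (within 0.02 reads), so read counts were recovered. Reads per library were 1336935 to 4685712.

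limma 3.58.1 with a mean-variance trend (R 4.3.3) was fitted to log2(CPM + 1) of 501 miRNAs, those whose mean CPM over the libraries reached 1, NC against MAFLD, with Benjamini-Hochberg adjustment over all 501. edgeR 4.0.16 (quasi-likelihood, TMM) and DESeq2 1.42.0 were run on the recovered reads as alternatives. The fits were tested on simulated data. Counting intervals are Wilson for shares and exact binomial for ratios of 2 libraries (scipy 1.17.1).

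The members and lists were chosen with earlier results of these data known. Besides the members, the text names opposite arms with at least 3 reads in a library, called miRNAs of the brain, oligodendrocyte and choroid plexus lists, the 5 tested non-members with the nearest profile to miR-9-5p, miR-218-5p and miR-1298-5p, miR-300-3p and miR-381-3p, and the hepatocyte list. Other names were chosen after their values were seen. Shared replicate numbers were not taken as pairs.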

Additional observations from a re-analysis of the deposited data

How the results depend on the processing

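The number of miRNAs called by limma over all tested (1 of 501) was 11 with no filter on low values, 2 with median-ratio scaling, 2 with CPM computed without miR-148a-3p, 5 with the replicate block and 28 by DESeq2. It was 0 with NC1 and NC2 both left out, against 37 at an unadjusted p under 0.05, an alternative chosen after seeing the data. With 1 library left out at a time it ran from 0 to 114, with 114 without NC replicate 3, 3 without MAFLD replicate 3 and 0 without any other, against 40 to 89 at an unadjusted p under 0.05. Of the 13 tested miRNAs of the other brain, oligodendrocyte and choroid plexus lists, limma called 0 (1 unadjusted) and DESeq2 1, and with 1 library left out 0 to 2, with 2 without NC replicate 3. The members' median log2 difference (-1.47) was -4.07 by edgeR, -4.41 by DESeq2, -2.24 with CPM computed without miR-148a-3p, -2.26 with a pseudocount of 0.1 CPM, -0.89 with one of 5 CPM, 0.11 with NC1 and NC2 both left out and -2.32 to -0.84 with 1 library left out. The causes were not tested. miR-9-5p, miR-218-5p and miR-129-5p kept a negative difference in all 16 alternatives, and miR-137-3p in 12 of 15. The remaining members kept it in all but the alternative with NC1 and NC2 both left out. There miR-129-5p differed by only -0.13, from NC3 alone against MAFLD. At a filter of 10 CPM, 6 of the 10 members were not tested.

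NC and MAFLD libraries with the same number came from different mice. The correlation of their deviations from the group means over tested miRNAs was 0.012, -0.020 and -0.046. These values gave no sign of pairing, but 3 libraries per group cannot decide whether libraries of the same number were prepared together. In this balanced design the replicate block cannot change the fitted differences (members' median -1.47). Its 5 calls included 1 member, miR-9-5p, and 0 of the other brain lists. Depth limits the scarce members most, since 3 reads were worth up to 2.24 CPM.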

Other observations

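miR-344-3p, a miRNA of the other brain list, was high in NC2 only. It stood at 11.5 CPM in NC2, 0.784 CPM in NC1, 0.748 CPM in NC3, 0 in MAFLD1, 1.49 CPM in MAFLD2 and 1.30 CPM in MAFLD3. miR-212-3p, which is known from neurons and shares a transcript with miR-132, went the other way, with 0.784, 2.55 and 1.50 CPM in NC1, NC2 and NC3 below 4.88, 4.27 and 3.26 CPM in MAFLD1, MAFLD2 and MAFLD3. Its log2 difference of MAFLD from NC was 1.02.

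The muscle miRNA miR-1a-3p set most of the summed muscle level. It stood at 49.8 CPM in NC1, 238 CPM in NC2, 180 CPM in NC3, 32.6 CPM in MAFLD1, 37.6 CPM in MAFLD2 and 223 CPM in MAFLD3, so it shared the high level in NC2 with miR-9-5p, but was low in NC1 and high in NC3 and MAFLD3. The erythroid miR-451a was highest in NC1, at 1043 CPM, and 527 CPM in NC2, a reverse order to that of all 10 neuronal and choroid plexus miRNAs. All of these were named after their values were seen.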
